A study of Mus musculus with 16 samples.

Results

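The interferon regulatory factors (IRFs) are transcription factors that share a DNA-binding domain and read GAAA-containing elements in interferon and interferon-induced genes. The 7 genes followed here were Irf1, Irf2, Irf3, Irf4, Irf5, Irf7 and Irf8. They were chosen by name, with synonyms allowed, and not by any measured value. Among 18461 genes named on the arrays, these 7 had 9 of the 41174 probes, with 2 probes for each of Irf1 and Irf8 and 1 for each of the other genes. Irf8 was found through its older name Icsbp1. A further probe was described only by a clone and an Irf3 product text and did not meet the naming rule. It passed in no comparison, with differences between -0.12 and 0.12 across tissues and stages.

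The cells came from BALB/c mice, with no transgene or deletion named in the labels. Adult bone marrow was pooled from 16 female mice per sort, and fetal liver from the embryos of 1 litter at day 16 of gestation, on average 8 per sort. There were 4 sorts per tissue. Each sort yielded fraction A (Fr.A, the pre-pro-B stage in the Hardy scheme) and fraction B/C (Fr.B/C, the pro-B stage), so the 4 groups held 4 arrays each and 16 in all. Every array set the sample against the same reference, RNA pooled from 6 cell lines (P388d, DN3, EL4, J558, RS2 and R1), and each level below is the log2 ratio of sample to reference. A level of 0 therefore equals the reference, and the levels of different genes are not compared. The labels do not give the sex of the embryos, so fetal and adult samples differ in age, tissue and possibly in sex.

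Irf1 is induced by interferon gamma and activates antiviral and antigen-presentation genes, and Irf2 binds the same elements and often opposes it. Irf3, Irf5 and Irf7 act downstream of pattern-recognition receptors, where phosphorylation turns them on. Irf7 is itself strongly induced by type I interferon. Irf4 and Irf8 are the lymphoid and myeloid members. They bind many sites together with the ETS factors PU.1 (Spi1) or Spi-B (Spib), and they have overlapping roles in the passage from the pro-B to the later pre-B stage. Irf8 also acts in early lymphoid progenitors and in dendritic cells and monocytes, and Irf4 in plasma cell differentiation.

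Across the arrays the median sample signal ranged from 71.22 to 162.3 in intensity units, and 52.9% to 68.3% of probes were well above background. With 4 arrays a group, their number limits the precision. Arrays numbered 1 and 2 of a group tended to deviate from their group mean together, as did arrays 3 and 4. Over 8 such pairs the median r was 0.599 and the lowest -0.0482. Between the pairs of a group r ran from -0.858 to -0.53. Deviations from a group mean cancel out within the group, so these negative values are not separate evidence. The p-values below treat the 4 arrays of a group as independent. Values with each such pair averaged first are given where they end a call of an Irf gene or of another gene named below, and beside the counts of gene lists that they lower by over 1.5 times. Among 13 tested B-lineage markers, 11 were higher and 1 lower in Fr.B/C than in Fr.A in bone marrow. In fetal liver 10 were higher and 2 lower (10 and 1 with pairs averaged). Over all genes, 13.5% were higher and 18.7% lower in bone marrow, and 9.96% and 12.7% in fetal liver. Erythroid markers stood apart between tissues, with 10 of 11 tested higher and 0 lower in fetal liver in each fraction. Of all genes, 12.2% were higher in fetal Fr.A and 13.9% in fetal Fr.B/C. Scan session and tissue cannot be told apart, since no session held arrays of both tissues. In sorted populations, fewer cells of a type and less RNA per cell cannot be told apart.

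Fetal cells carried less Irf1, Irf5, Irf7 and Irf8 RNA and more Irf4 RNA than adult cells at both stages. From Fr.A to Fr.B/C, Irf4 rose and Irf8 fell in both tissues, and Irf5 rose in bone marrow. In the main fit the Irf4 rise was smaller and the Irf8 fall larger in fetal liver. The smaller Irf4 rise did not pass with arrays averaged in pairs (limma adjusted p = 0.137). Fetal Fr.B/C had the highest Irf4 and the lowest Irf8 level of the 4 groups, and fetal Fr.A already had more Irf4 than bone marrow Fr.A. Irf2 and Irf3 passed in no comparison. In the fetal-to-adult comparison, 5 of the 7 genes passed in Fr.A (1 higher, 4 lower), against 29.3% of the 22189 genes and transcripts tested (12.2% higher, 17.1% lower). In Fr.B/C these 5 genes passed in the same directions, against 28.6% of all (13.9% higher, 14.8% lower). The groups of 4 arrays did not overlap for 5 of 7 genes in each fraction, against 26.1% of all genes in Fr.A, with 29.6% in Fr.B/C. The median log2 change over the 7 genes was -0.65 in Fr.A, with -0.87 in Fr.B/C, beside -0.01 and 0.01 over all genes.

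**Figure D1:**
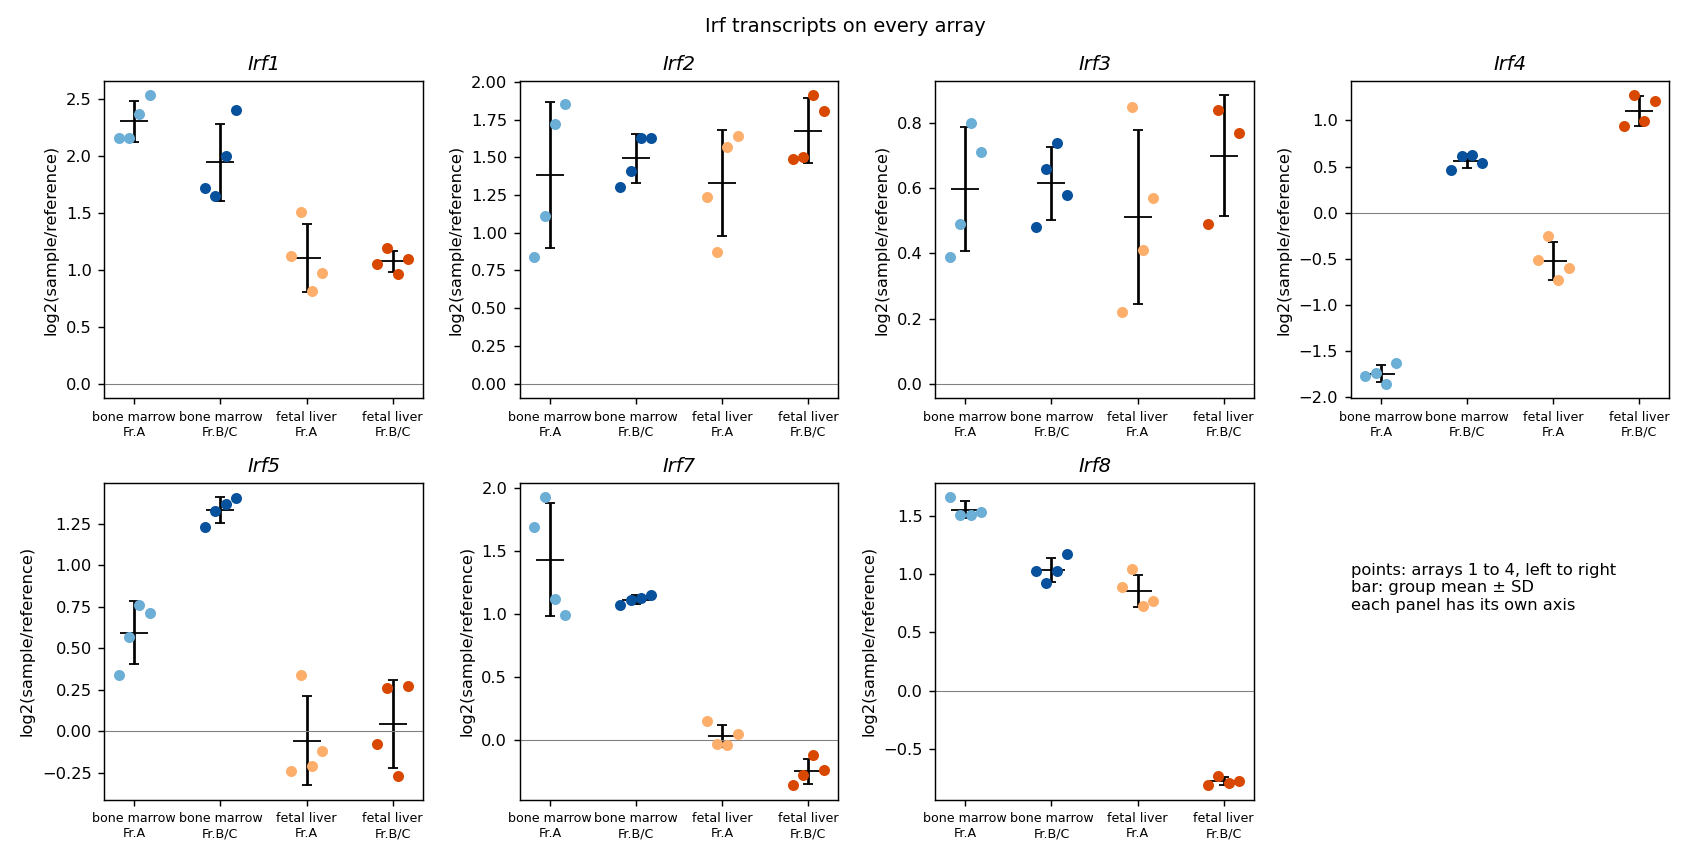
Log2 ratio of sample to reference for each Irf gene on the 16 arrays, in 1 panel per gene with its own axis. Points are arrays 1 to 4 of a group from left to right, and bars are the group mean ± SD. Irf1, Irf5, Irf7 and Irf8 lie lower in fetal liver than in bone marrow within each fraction, and Irf4 lies higher.

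Irf4 had the largest stage difference of the 7 genes in bone marrow. In bone marrow Fr.A its log2 ratios on the 4 arrays were -1.77, -1.73, -1.85 and -1.63. In bone marrow Fr.B/C they were 0.46, 0.61, 0.62 and 0.54. Every Fr.B/C array lay above every Fr.A array by over 2 log2 units. Fetal liver Fr.A gave -0.51, -0.25, -0.73 and -0.60, and fetal liver Fr.B/C gave 0.94, 1.27, 0.99 and 1.21. The 4 groups did not overlap, in the order bone marrow Fr.A, fetal liver Fr.A, bone marrow Fr.B/C and fetal liver Fr.B/C. Irf4 rose from Fr.A to Fr.B/C by 2.30 ± 0.09 (SE) in bone marrow (4.93-fold, limma adjusted p = 4.65e-11) and by 1.63 ± 0.09 in fetal liver (3.09-fold, adjusted p = 2.93e-09). Fetal liver exceeded bone marrow by 1.22 ± 0.09 in Fr.A (2.33-fold, adjusted p = 7.1e-08) and by 0.54 ± 0.09 in Fr.B/C (1.46-fold, adjusted p = 0.000294). The Fr.B/C difference was 0.36 (adjusted p = 0.251) with median centring in place of loess and 0.43 (adjusted p = 0.105) on the arrays with the sample in Cy5. Within scan sessions that held both fractions, the rise was 2.36, 2.47 and 2.18 in bone marrow and 1.49 and 1.76 in fetal liver.

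The difference between the rises, called the interaction, was -0.68 ± 0.13 for Irf4 (limma adjusted p = 0.0037). With arrays 1 and 2 and arrays 3 and 4 averaged first, the value remained -0.68 with an adjusted p of 0.137, and with these pairs as a random block the adjusted p was 0.0698. Scaling between arrays gave -0.59 (adjusted p = 0.082) and median centring -0.67 (adjusted p = 0.372). The smaller rise in fetal liver thus had a value of like size but did not pass in those analyses.

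Irf8 moved the other way. Its log2 ratios were 1.66, 1.51, 1.51 and 1.53 in bone marrow Fr.A and 1.03, 0.92, 1.03 and 1.17 in bone marrow Fr.B/C. In fetal liver, Fr.A gave 0.89, 1.04, 0.73 and 0.77. Fetal liver Fr.B/C gave -0.81, -0.73, -0.79 and -0.77. Bone marrow Fr.A was highest and fetal liver Fr.B/C lowest, while bone marrow Fr.B/C and fetal liver Fr.A overlapped. Irf8 fell by 0.51 ± 0.08 from Fr.A to Fr.B/C in bone marrow (log2 scale, limma adjusted p = 0.000167). In fetal liver it fell by 1.63 ± 0.08, a 3.09-fold decrease (adjusted p = 1.21e-09). Fetal liver lay below bone marrow by a log2 difference of -0.70 ± 0.08 in Fr.A (adjusted p = 1.25e-05) and of -1.81 ± 0.08 in Fr.B/C (3.51-fold, adjusted p = 2.8e-10). The interaction was -1.12 ± 0.12 (adjusted p = 3.37e-05) and passed with the pairs of arrays averaged. Median centring gave -1.25 (adjusted p = 0.0706). The bone marrow fall (-0.36, adjusted p = 0.328) and the Fr.A difference between tissues (-0.68, adjusted p = 0.0533) also did not pass with median centring. On the arrays with the sample in Cy3 the bone marrow fall was -0.47 (adjusted p = 0.0993).

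The other Irf8 probe, which was dimmer, gave the same order with less separation in Fr.A. Its group means were 1.15 ± 0.15 (SD, n = 4) in bone marrow Fr.A, 0.82 ± 0.08 in bone marrow Fr.B/C, 0.82 ± 0.11 in fetal liver Fr.A and -0.92 ± 0.43 in fetal liver Fr.B/C. The fetal step was -1.74 ± 0.16 (limma adjusted p = 1.76e-06) and the interaction -1.41 ± 0.22 (adjusted p = 0.00201). Its bone marrow step (-0.32 ± 0.16, adjusted p = 0.193) and its Fr.A difference between tissues (-0.33 ± 0.16, adjusted p = 0.191) did not pass. The low fetal Fr.B/C level therefore held on both probes. The smaller differences passed on the brighter probe alone. On the dimmer probe they had the same direction, and the groups compared did not overlap.

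**Figure D2:**
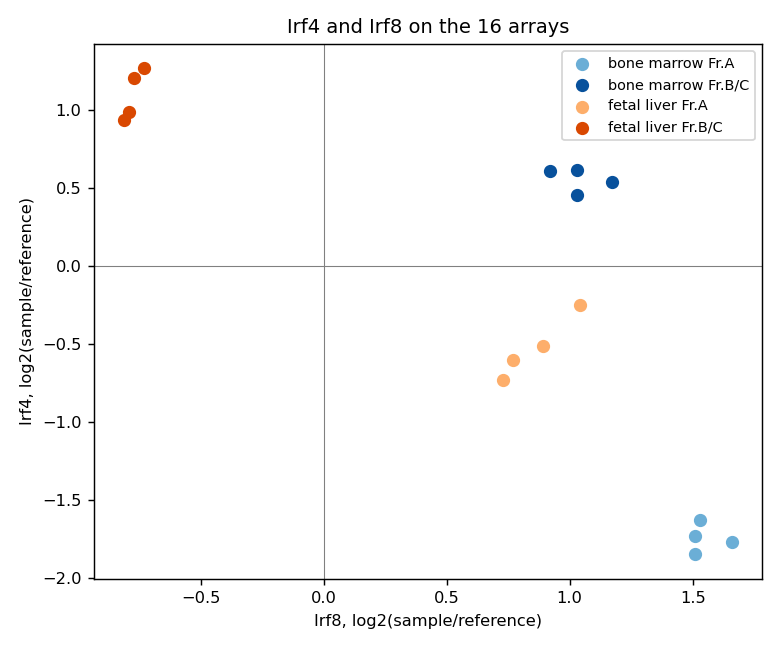
Irf4 (vertical) against Irf8 (horizontal), each as log2 ratio of sample to reference, with 1 point per array coloured by group. The 4 fetal liver Fr.B/C arrays lie at the upper left, at Irf8 between -0.81 and -0.73, and the 4 bone marrow Fr.A arrays at the lower right, at Irf4 between -1.85 and -1.63.

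Irf5, which acts downstream of Toll-like receptors, separated the adult from the fetal pro-B fraction. Bone marrow Fr.A gave 0.34, 0.57, 0.76 and 0.71 and bone marrow Fr.B/C 1.23, 1.33, 1.37 and 1.41. Fetal liver Fr.A gave -0.24, 0.34, -0.21 and -0.12 and fetal liver Fr.B/C -0.08, 0.26, -0.27 and 0.27. The fetal fractions overlapped throughout, and fetal Fr.A array 2 came within rounding of bone marrow Fr.A array 1. Irf5 rose by 0.74 ± 0.12 from Fr.A to Fr.B/C in bone marrow (limma adjusted p = 0.000179), and the fetal step was 0.10 ± 0.12 (adjusted p = 0.624). Fetal liver lay below bone marrow by -1.29 ± 0.12 in Fr.B/C (2.45-fold, adjusted p = 9.61e-07) and by -0.65 ± 0.12 in Fr.A (adjusted p = 0.000648). The Fr.A value was -0.41 (adjusted p = 0.0578) on arrays 1 and 2 alone and -0.53 (adjusted p = 0.104) on the arrays with the sample in Cy3.

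The Irf5 interaction of -0.64 ± 0.17 was near the threshold (limma adjusted p = 0.0325). It did not pass with arrays averaged in pairs (adjusted p = 0.207), with the scanner's processed signals (adjusted p = 0.0998) or in the deposited table (adjusted p = 0.0968). Leaving out any 1 of 9 of the 16 arrays also ended the call, with adjusted p-values between 0.0509 and 0.075. These were arrays 1, 2 and 4 of bone marrow Fr.A, 1 and 3 of bone marrow Fr.B/C, 2 and 3 of fetal liver Fr.A, and 1 and 3 of fetal liver Fr.B/C.

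Irf7, the inducer of type I interferon genes, was lower in fetal liver at both stages. Bone marrow Fr.A gave 1.69, 1.93, 1.12 and 0.99, and bone marrow Fr.B/C gave 1.07, 1.11, 1.13 and 1.15. Fetal liver Fr.A gave 0.15, -0.03, -0.04 and 0.05, and fetal liver Fr.B/C gave -0.36, -0.28, -0.12 and -0.24. The bone marrow fractions overlapped and both lay above every fetal array. Fetal liver differed from bone marrow by -1.40 ± 0.16 in Fr.A (2.64-fold, limma adjusted p = 7.95e-06) and by -1.37 ± 0.16 in Fr.B/C (2.58-fold, adjusted p = 1.16e-05). The probe was dim in fetal liver, being well above background on 3 of 4 Fr.A arrays and 1 of 4 Fr.B/C arrays, and the offset used here compresses differences of dim probes. In the scanner's processed signals the same differences were -2.36 ± 0.25 and -3.00 ± 0.25, and in the authors' deposited table -2.25 ± 0.22 and -2.66 ± 0.22, all passing.

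The stage step of Irf7 did not pass in either tissue. It was -0.32 ± 0.16 in bone marrow (limma adjusted p = 0.151) and -0.28 ± 0.16 in fetal liver (adjusted p = 0.242), although the fetal fractions did not overlap. In fetal liver it was -1.0 (adjusted p = 0.00882) with the processed signals and -0.79 (adjusted p = 0.0147) in the deposited table, where it passed. In bone marrow it passed without Fr.A array 4 (-0.48, adjusted p = 0.0204). Within bone marrow scan sessions it was -0.70, 0.01 and 0.16, so arrays 1 and 2 of Fr.A were high and the later arrays were not.

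Irf1 was also lower in fetal liver. Bone marrow Fr.A gave 2.16, 2.16, 2.37 and 2.53, and bone marrow Fr.B/C 1.72, 1.65, 2.00 and 2.40. Fetal liver Fr.A gave 1.12, 1.51, 0.81 and 0.97, and fetal liver Fr.B/C 1.05, 1.19, 0.96 and 1.09. No fetal array reached a bone marrow array of the same fraction. The tissue difference was -1.20 ± 0.16 in Fr.A (2.30-fold, limma adjusted p = 3.1e-05) and -0.87 ± 0.16 in Fr.B/C (1.83-fold, adjusted p = 0.00063). On arrays 1 and 2 alone the Fr.B/C value was -0.56 (adjusted p = 0.0189), and on the arrays with the sample in Cy3 it was -0.88 with an adjusted p of 0.1.

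From Fr.A to Fr.B/C in bone marrow, Irf1 gave -0.36 ± 0.16 (limma adjusted p = 0.0926). With the sort as a block, the pairing of Fr.A and Fr.B/C from the same sort, the value was -0.36 ± 0.09 and passed (adjusted p = 0.00777). With arrays averaged in pairs it did not pass (-0.36 ± 0.21, adjusted p = 0.286). It also passed without bone marrow Fr.B/C array 4 (-0.50, adjusted p = 0.0208). The fetal step was -0.03 ± 0.16 (adjusted p = 0.925). The other Irf1 probe was too dim to be tested, being well above background on at most 2 arrays of any group.

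Irf2, the counterpart of Irf1, ranged from 0.84 to 1.85 in bone marrow Fr.A, 1.30 to 1.63 in bone marrow Fr.B/C, 0.87 to 1.64 in fetal liver Fr.A and 1.49 to 1.91 in fetal liver Fr.B/C. All groups overlapped, and arrays 3 and 4 lay above arrays 1 and 2 in each of them. The tissue differences were -0.05 ± 0.21 and 0.19 ± 0.21, and the steps 0.11 ± 0.21 and 0.35 ± 0.21, none of which passed (limma adjusted p = 0.288 or higher). With the sort as a block, the fetal step of 0.35 ± 0.12 passed (adjusted p = 0.0341). It did not pass with arrays averaged in pairs (adjusted p = 0.183) or with the pairs as a random block. Irf3 lay between 0.22 and 0.85 on the 15 arrays with a value, and array 3 of fetal liver Fr.B/C was dropped from its fit as an outlier spot. Its differences were between -0.09 ± 0.12 and 0.16 ± 0.13, and none passed (limma adjusted p = 0.457 or higher).

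**Figure D3:**
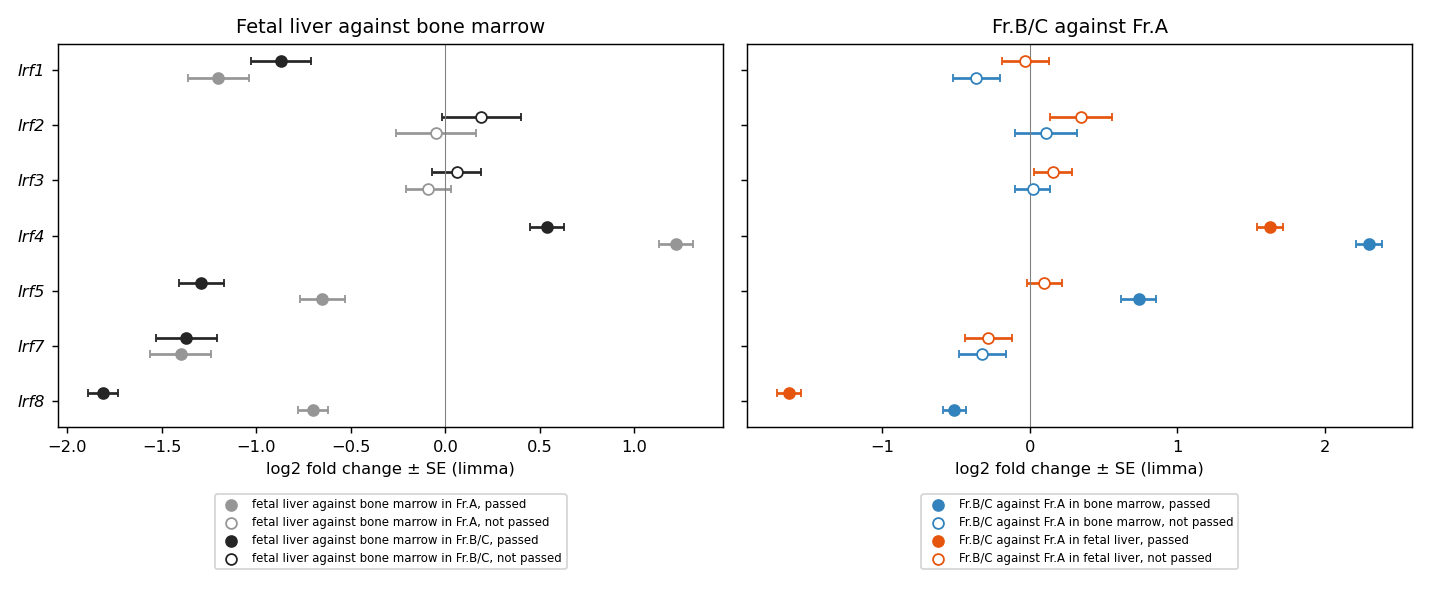
Log2 fold change ± SE from the limma model for the 7 Irf genes, fetal liver against bone marrow on the left and Fr.B/C against Fr.A on the right. Filled points passed at an adjusted p under 0.05 and open points did not. Irf4 lies at 2.30 in bone marrow and 1.63 in fetal liver on the right, and Irf8 at -0.51 and -1.63.

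Between stages, 3 of the 7 genes passed in bone marrow (Irf4 and Irf5 higher, Irf8 lower in Fr.B/C), against 32.2% of all genes (13.5% higher, 18.7% lower). In fetal liver 2 of 7 passed (Irf4 higher, Irf8 lower), against 22.7% (9.96% higher, 12.7% lower). The groups did not overlap for 3 genes in each tissue, against 29.5% of all genes in bone marrow and 24.1% in fetal liver. The interaction passed for 3 of 7 (Irf4, Irf5 and Irf8, all negative), against 7.35% of all genes (4.36% positive, 2.99% negative). With arrays averaged in pairs, 1 of 7 passed, Irf8, where 252 of all 22189 genes and transcripts passed. Outside the chosen 7, the relative Irf9, the DNA-binding part of the complex that type I interferon activates, was lower in fetal liver by -1.29 ± 0.12 in Fr.A and by -2.48 ± 0.12 in Fr.B/C (limma adjusted p = 8.71e-07 and 4.58e-10).

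Promoters of 3 of the 7 genes held a motif of the interferon pathway, and these are shown. Irf1 and Irf8 differed between tissues and Irf2 did not pass there. Each stretch runs 5′ to 3′ from 250 bases before to 50 bases after a RefSeq start site (build GRCm38.p6), and capitals mark the motif matches. Irf1 is at chr11:53769764-53770063, Irf2 at chr8:46739495-46739794 and Irf8 at chr8:120736108-120736407, all on the plus strand.
Irf1: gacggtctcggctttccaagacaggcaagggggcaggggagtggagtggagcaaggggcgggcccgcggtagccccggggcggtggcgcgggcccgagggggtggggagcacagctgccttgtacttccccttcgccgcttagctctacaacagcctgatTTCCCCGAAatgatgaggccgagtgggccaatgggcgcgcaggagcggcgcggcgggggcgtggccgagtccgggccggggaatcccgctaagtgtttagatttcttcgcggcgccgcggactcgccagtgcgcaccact
Irf2: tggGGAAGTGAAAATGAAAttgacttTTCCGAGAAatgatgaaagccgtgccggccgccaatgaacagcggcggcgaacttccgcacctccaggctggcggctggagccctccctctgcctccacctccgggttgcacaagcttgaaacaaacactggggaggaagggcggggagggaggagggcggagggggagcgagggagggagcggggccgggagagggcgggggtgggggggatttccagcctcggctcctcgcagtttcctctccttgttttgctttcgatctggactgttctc
Irf8: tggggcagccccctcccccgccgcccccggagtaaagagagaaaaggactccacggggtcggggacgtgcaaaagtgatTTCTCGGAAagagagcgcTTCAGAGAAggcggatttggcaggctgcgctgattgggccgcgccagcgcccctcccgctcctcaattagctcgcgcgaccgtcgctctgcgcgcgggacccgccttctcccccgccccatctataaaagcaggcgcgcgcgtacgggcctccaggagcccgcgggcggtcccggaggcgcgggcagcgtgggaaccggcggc
The 3 motifs searched on both strands were the gamma-activated sequence TTCNNNGAA, the interferon-stimulated response element core GAAANNGAAA, and the joint ETS and IRF element GGAANNGAAA. All 7 genes matched the RefSeq promoter table, with 9 promoters among them. Irf1 held TTCCCCGAA, whose first base lies at -90 from the start site. Irf8 held TTCTCGGAA at -171 and TTCAGAGAA at -153. Irf2 held TTCCGAGAA at -224, and upstream of it the response element match GAAAATGAAA at -241, which overlaps the joint element GGAAGTGAAA at -247. The gamma-activated sequence was thus found in 3 of 7 genes, against 8.3% of 32851 promoters of this length. The latter is a share per promoter, and a gene with more than 1 promoter has more chances of a match. The response element core and the joint element were found in 1 of 7 genes each, against 3.44% and 2.72% of promoters. Letters of a motif do not show that a factor binds there. No match for these motifs lay in the searched windows of Irf3, Irf4, Irf5 or Irf7, and Irf4, Irf5 and Irf7 differed between tissues. A link of the motifs to the differences was not tested.

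The genes around the IRFs were read by role, beginning with the sensors. Of 16 tested sensors and kinases that feed into Irf3, Irf5 and Irf7, 7 were lower and 0 higher in fetal Fr.A, and 6 were lower and 0 higher in fetal Fr.B/C, against 17.1% and 14.8% of all genes lower. With arrays averaged in pairs, 5 and 3 were lower. Ifih1, a sensor of double-stranded RNA, was lower by -0.74 ± 0.14 in Fr.A and by -1.55 ± 0.14 in Fr.B/C (limma adjusted p = 0.000919 and 8.37e-07). Ddx58, which encodes RIG-I, was lower by -0.70 and -0.95, and its probe was well above background on 2 of 4 fetal Fr.B/C arrays. The kinase Tbk1 gave -0.01 ± 0.22 and -0.43 ± 0.22 and did not pass. Between stages Tlr7, an endosomal sensor of single-stranded RNA, fell by 2.13 ± 0.12 in bone marrow. Its probe was not well above background on any of the 4 fetal Fr.B/C arrays, so the fetal fall has only a bound of at least 2.78-fold, taken against the dimmest probes still well above background. Tlr4 rose by 1.63 in bone marrow and by 1.76 in fetal liver (adjusted p under the threshold for each step).

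Among 11 interferon receptor, Jak and Stat genes, 5 were lower and 0 higher in fetal Fr.A, and 6 were lower and 1 higher in fetal Fr.B/C, against the same shares of all genes. With arrays averaged in pairs, 3 were lower in Fr.A, and 6 were lower and 0 higher in Fr.B/C. The receptor chain Ifnar1 was lower by -0.32 ± 0.08 in Fr.A and by -1.04 ± 0.08 in Fr.B/C (limma adjusted p = 0.00678 and 1.11e-07), and the Fr.A value did not pass with pairs averaged (adjusted p = 0.107).

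Of 32 tested interferon-stimulated target genes, 28 were lower and 0 higher in fetal liver in Fr.A, and likewise 28 and 0 in Fr.B/C, against 17.1% and 14.8% of all genes lower. The list median was -1.19 in Fr.A, with -1.23 in Fr.B/C. The mean of the list on an array ran from 1.16 to 1.33 in bone marrow Fr.A, 0.96 to 1.08 in bone marrow Fr.B/C, -0.09 to 0.06 in fetal liver Fr.A and -0.43 to -0.26 in fetal liver Fr.B/C. Fetal and adult arrays did not overlap on this mean. Tgtp1, an interferon-induced GTPase with a near-identical neighbour that the probe may also read, was lower by -4.02 ± 0.14 in Fr.A and by -4.87 ± 0.14 in Fr.B/C (limma adjusted p = 2.47e-11 and 3.32e-12). Oas1a, an antiviral synthetase of a multigene family, was lower by -1.77 ± 0.09 and -2.76 ± 0.09. The antigen-presentation genes Psmb8 (-1.49 and -1.67) and Tap1 (-1.53 and -1.94) were lower in both fractions. B2m was lower by -1.88 in Fr.A and, its probe being saturated on all 4 adult Fr.B/C arrays, by at least 2.75-fold in Fr.B/C. Rsad2 gave 0.50 ± 0.39 and 0.78 ± 0.39 and did not pass.

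From Fr.A to Fr.B/C, the 32 target genes counted 2 higher and 11 lower in bone marrow (median -0.16) and 1 higher and 10 lower in fetal liver (median -0.29), against 18.7% and 12.7% of all genes lower. Gbp2, a guanylate-binding protein, rose in both tissues, by 1.01 ± 0.13 in bone marrow and 1.64 ± 0.13 in fetal liver (limma adjusted p = 1.53e-05 and 1.13e-07).

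**Figure D4:**
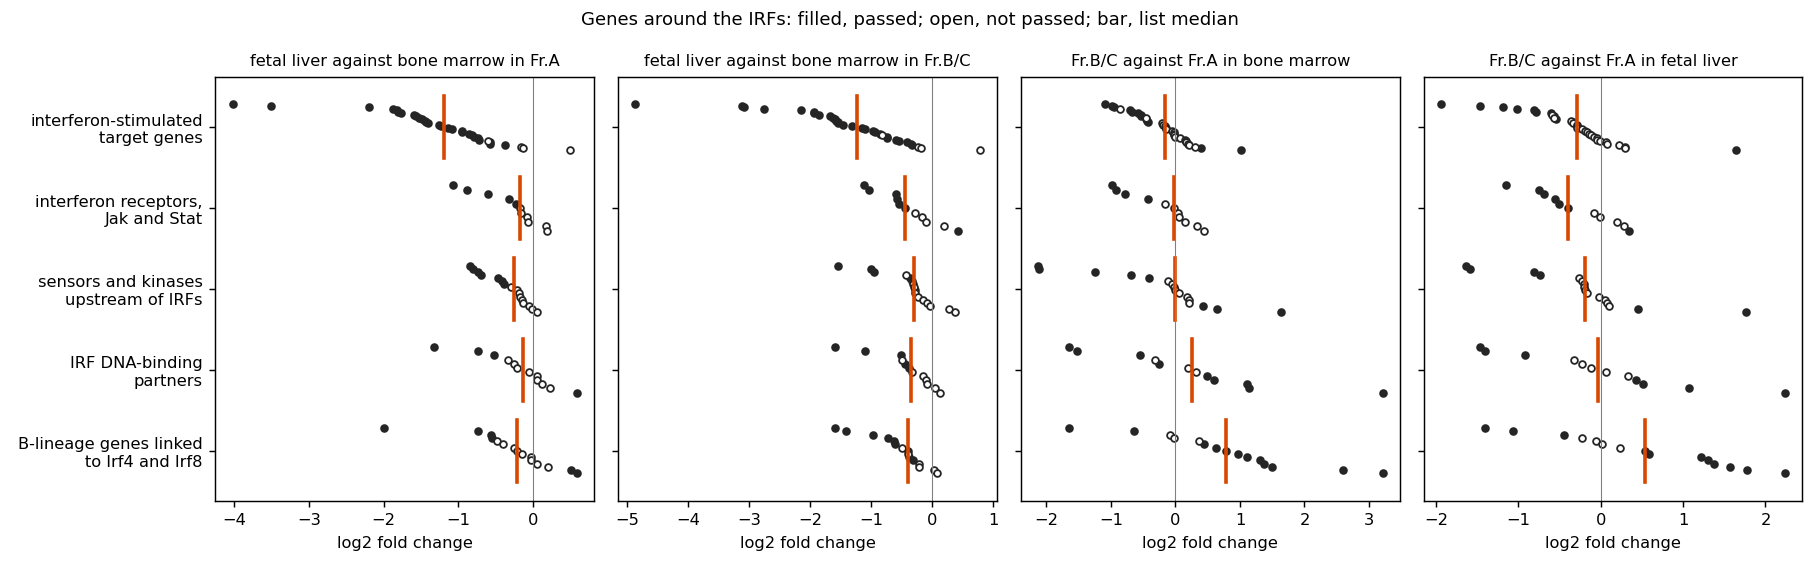
Log2 fold change of every tested gene of 5 lists around the IRFs in the 4 comparisons. Filled points passed at an adjusted p under 0.05, open points did not, and the orange bar is the list median. Most interferon-stimulated target genes lie to the left of 0 in both fetal-to-adult comparisons, with medians of -1.19 and -1.23, while Rsad2 lies to the right.

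The list of DNA-binding partners holds factors that bind DNA beside Irf4 or Irf8. Of 12 tested, 5 were higher and 4 lower in bone marrow Fr.B/C than in Fr.A, and 4 were higher and 3 lower in fetal liver. These stand against 13.5% of all genes higher and 18.7% lower in bone marrow, and 9.96% and 12.7% in fetal liver. With arrays averaged in pairs, 4 were higher and 2 lower in bone marrow, and 3 and 3 in fetal liver. Spib rose with Irf4, by 3.21 ± 0.12 in bone marrow and 2.24 ± 0.13 in fetal liver (limma adjusted p = 7.45e-11 and 9.77e-09). Spi1, which encodes PU.1, fell by 0.25 ± 0.09 in bone marrow and by 0.92 ± 0.09 in fetal liver (adjusted p = 0.0398 and 1.32e-06), and the bone marrow value did not pass with pairs averaged (adjusted p = 0.199). Tcf3, which encodes the E2A proteins, rose by 1.14 and 1.07. Batf, an AP-1 partner, fell by 1.52 and 1.46. Bcl6 was lower in fetal than adult Fr.B/C by -1.59 ± 0.26 (adjusted p = 0.000255), and its Fr.A value of -0.25 ± 0.26 did not pass.

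The list of B-lineage genes linked to Irf4 and Irf8 shares Spib, Bcl6 and Ikzf1 with the partners. It also shares Vpreb1, Vpreb3, Blnk, Rag1, Rag2 and Ebf1 with the B-lineage markers counted above. Of its 15 tested genes, 10 were higher and 2 lower in bone marrow Fr.B/C than in Fr.A. In fetal liver 8 were higher and 3 lower, and with pairs averaged the counts were 8 higher and 2 lower in each tissue. Over all genes, 13.5% were higher and 18.7% lower in bone marrow, and 9.96% and 12.7% in fetal liver. Ikzf3, which encodes Aiolos, rose by 1.49 ± 0.13 and 1.30 ± 0.13 (limma adjusted p = 4.17e-07 and 2.51e-06). The surrogate light chain gene Vpreb2 rose by 2.59 and 1.78. In fetal against adult Fr.B/C, 9 of the 15 were lower and 0 higher, against 14.8% of all genes lower, and 5 were lower with pairs averaged. In Fr.A the list was mixed, with 4 lower and 2 higher, against 17.1% and 12.2% of all genes. With pairs averaged, 2 were lower and 2 higher in Fr.A. Blnk, the adaptor of pre-B cell receptor signalling, was lower by -2.0 ± 0.18 in Fr.A and by -1.41 ± 0.18 in Fr.B/C (adjusted p = 5.2e-07 and 2.24e-05). Ebf1, a factor of B-lineage commitment, was lower by -0.56 and -0.98.

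Of 9 tested regulators that bind IRF proteins, 3 were lower and 1 higher in fetal liver in each fraction, where 29.3% and 28.6% of all genes were called. With arrays averaged in pairs, 2 were lower and 1 higher in each. Irf2bp2, a corepressor that binds Irf2, was lower by -0.96 in Fr.A and by -0.71 in Fr.B/C (limma adjusted p = 0.000129 and 0.0018). Trim21, a ubiquitin ligase with several IRF substrates, was lower by -0.66 and -0.76. Between stages, Peli1, a ubiquitin ligase of Toll-like receptor signalling, fell by 0.87 in bone marrow and by 0.55 in fetal liver.

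Markers of other cell types were also counted, and their part in the results was not tested. Over all genes, 13.5% were higher and 18.7% lower in Fr.B/C than in Fr.A in bone marrow, and 9.96% and 12.7% in fetal liver. Between tissues, 12.2% of all genes were higher and 17.1% lower in fetal Fr.A, and 13.9% and 14.8% in fetal Fr.B/C. Marker counts near these shares are not read as results. Of 13 tested plasmacytoid dendritic cell markers (Spib and Bst2 among them), 9 were lower and 1 higher in Fr.B/C than Fr.A in bone marrow, and 8 lower and 1 higher in fetal liver. The mean of the list ran from 0.24 to 0.46 in bone marrow Fr.A, 0.69 to 0.74 in fetal liver Fr.A, -0.56 to -0.41 in bone marrow Fr.B/C and -0.64 to -0.33 in fetal liver Fr.B/C. Siglech, a defining marker, was well above background on all 4 arrays of each Fr.A group and on 0 arrays of either Fr.B/C group. In Fr.A, 5 of these markers were higher and 3 lower in fetal liver (5 and 1 with pairs averaged). Of 16 tested myeloid markers, 8 were lower and 3 higher in fetal Fr.A, and 7 were lower and 0 higher in fetal Fr.B/C. Their mean ran from 2.87 to 3.64 in bone marrow Fr.A, 2.24 to 2.77 in bone marrow Fr.B/C, 1.85 to 2.73 in fetal liver Fr.A and 1.06 to 1.84 in fetal liver Fr.B/C. Of 10 tested macrophage markers, 4 were higher and 1 lower in fetal liver at each stage. The median log2 change of this list between tissues was 0.26 for Fr.A, with 0.24 for Fr.B/C. Of 12 tested natural killer cell markers, 10 were lower and 0 higher in Fr.B/C than in Fr.A in bone marrow, and 3 and 0 in fetal liver. Between tissues, 9 of them were lower and 0 higher in fetal Fr.A (6 and 0 with pairs averaged), and 2 were lower and 1 higher in fetal Fr.B/C. Of 12 tested T-lineage markers, 6 were lower and 0 higher in fetal Fr.A, and 5 were lower and 1 higher in fetal Fr.B/C. The mean of the natural killer list ran from 0.90 to 1.31 in bone marrow Fr.A, -0.23 to -0.10 in bone marrow Fr.B/C, 0.00 to 0.08 in fetal liver Fr.A and -0.64 to -0.45 in fetal liver Fr.B/C.

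Over the 16 arrays, the Irf genes fell into patterns that are given here as a description, since the arrays share 4 groups and 1 reference. Irf4 and Irf8 correlated at r = -0.79, Irf1 and Irf7 at 0.86, and Irf7 and Irf8 at 0.80. The named genes most like Irf8 were Serpinb1a (r = 0.995), Spns3 (0.991) and Alox5ap (0.987). Those most like Irf4 were Prep (0.984), Ethe1 (0.983) and Capsl (0.982). For Irf5 they were Tcirg1 (0.983), Cope (0.978) and Aldh3b1 (0.975), and for Irf7 Akr1c13 (0.979), Tmem176a (0.978) and Tk2 (0.976). For Irf1 they were Cers2 (0.977), Osbpl5 (0.976) and Tspyl3 (0.97). The closest genes to Irf2 (Tlnrd1, r = 0.925) and to Irf3 (Map1s, r = 0.895 over 15 arrays) had lower coefficients.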

How the data were processed

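RNA (100 ng) was amplified and hybridised on 16 two-colour Agilent arrays, with the sample in Cy5 on arrays 1 and 3 and in Cy3 on arrays 2 and 4, per the labels. Per the file headers, the deposited scanner files come from Feature Extraction 8.5.1.1 and hold raw and processed intensity values and a log10 ratio of Cy5 to Cy3. The authors also deposited a table of log2 ratios made by a method that the sources used here do not give. It runs as sample over reference, is centred near 0 (array medians -0.007255 to 0.02011) and had r = 0.9507 to 0.9653 with the loess ratios described next. The submitters' processing notes name limma.

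Here, mean signals were corrected with normexp (offset 50), normalised by loess and turned to sample over reference in limma 3.58.1 (R 4.3.3). Control and outlier spots were left out. A probe was kept if 3 or more arrays of some group had it well above background in the sample channel and 12 or more arrays gave a value (27526 of 41174). Genes were named through RefSeq accession, clone or description, and each gene's brightest kept probe was tested. The model had 4 group means and a dye term (11 residual degrees of freedom), moderated by empirical Bayes, and p-values were adjusted by Benjamini-Hochberg over 22189 genes and transcripts. The threshold was an adjusted p of 0.05. Errors are standard errors unless given as SD.

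The labels state that both fractions came from each sort. Same-numbered arrays of a tissue deviated together (r = 0.249 to 0.519 over 8 pairs), so fits with the sort as a block are given where they change a call. Nothing pairs arrays across tissues. The Irf genes and the gene lists were chosen with earlier results of these data known. Named genes are the 7 Irf genes, up to 4 passing members per list and comparison with the smallest adjusted p, and the 3 genes most correlated with each Irf gene. Genes named beyond that rule (Siglech, Tbk1, Rsad2, Tap1 and B2m) were chosen after their values were seen. The model was tested on simulated data. Alternatives covered background, normalisation, filters, probe choice, dye, sort, scan session, array pairs and leaving out each array.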

Additional observations from a re-analysis of the deposited data

Results flagged for a closer look

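Irf8 in bone marrow Fr.A was 1.66 on array 1, far from the other 3 arrays of that group relative to their spread (1.51 to 1.53). Chance marks about 1 in 20 groups in this way, and 27 groups were looked at. The step from Fr.A to Fr.B/C differed between fetal liver and bone marrow by the interaction test for 3 genes. The log2 difference of the steps was -0.68 for Irf4, -0.64 for Irf5 and -1.12 for Irf8.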

How the results depend on the processing

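The 18 called results of the 7 Irf genes gave 646 values under the alternatives: 608 kept their direction and their side of the threshold, 38 kept their direction and did not pass, and 0 changed sign. The interaction passed for 3 genes and for 0 with median centring, 0 on the Cy5 arrays, 0 on the Cy3 arrays, and 1 with scaling between arrays, with pairs of arrays averaged or with pairs as a random block. For the bone marrow step, 5 genes passed on arrays 1 and 2 alone and 2 with median centring or on the Cy3 arrays, against 3. Between tissues, the count of 5 became 4 in both fractions with median centring and on the Cy3 arrays, 4 in Fr.A on arrays 1 and 2, and 4 in Fr.B/C on the Cy5 arrays. Leaving out 1 array gave 3 to 4 for the bone marrow step and 2 to 3 for the interaction. It did not alter the counts of 5 and 5 between tissues and 2 for the fetal step. The replicate block by sort made Irf1 pass in bone marrow (-0.36, adjusted p = 0.00777) and Irf2 in fetal liver (0.35, adjusted p = 0.0341), and neither passed with pairs averaged or as a random block. The block by number made Irf2 pass there (adjusted p = 0.0394), and neither block changed another call of the 7 genes. The cause of these changes was not tested.

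Values that changed sign all belong to results that did not pass. For the Irf7 interaction they were -0.01 without background subtraction, -0.17 with offset 16, -0.64 with processed signals, -0.09 with scaling, -0.41 in the deposited table, -0.01 and -0.06 with the scan session as a random and a fixed block, -0.27 on arrays 3 and 4, and -0.15 to 0.20 leaving out 1 array. Irf7 gave 0.09 in bone marrow on arrays 3 and 4. Irf1 in fetal liver gave 0.06 with median centring, 0.13 on arrays 3 and 4, 0.04 in Cy5, and -0.11 to 0.09 leaving out 1 array. Irf2 gave -0.10 between tissues in Fr.B/C with median centring. In Fr.A it gave 0.02 with scaling, 0.08 on arrays 1 and 2, 0.12 in Cy5 and -0.25 to 0.12 leaving out 1 array. Its bone marrow step was -0.16 on arrays 3 and 4 and -0.08 to 0.28 leaving out 1 array. Irf3 between tissues in Fr.B/C gave -0.05 with median centring, -0.10 in the deposited table and -0.12 in Cy5, and in Fr.A 0.09 on arrays 1 and 2, 0.11 in Cy3 and -0.18 to 0.02 leaving out 1 array. Its bone marrow step was -0.01 in the deposited table, -0.03 with the session block, -0.09 on arrays 3 and 4 and -0.06 to 0.12 leaving out 1 array. Its fetal step and interaction in the deposited table were -0.02 and -0.01.

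Over all genes the interaction count of 1631 was 252 with pairs averaged, 497 with pairs as a random block, 429 with median centring, 922 with scaling and 3606 with the sort block. With pairs averaged, the called genes fell from 6509 to 3980 in Fr.A and from 6350 to 3742 in Fr.B/C between tissues, and the target genes lower in fetal liver were 27 and 25 in place of 28. Median centring moved the share of higher calls from 41.7% to 23.0% in Fr.A, from 48.5% to 20.4% in Fr.B/C and from 43.9% to 31.6% for the fetal step. Across the alternatives 21 to 29 target genes were lower in fetal Fr.A and 21 to 30 in Fr.B/C. The sort block for the interaction and the counts of target genes under the alternatives were chosen after seeing the data. Signal over background limits Irf7 in fetal liver and the other Irf1 probe, and in fetal Fr.B/C also Tlr7 and Ddx58, among others.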
